A study of Homo sapiens with 21 samples.

Results

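NOTCH signalling passes between neighbouring cells. A ligand of the Delta-like (DLL1, DLL3, DLL4) or Jagged (JAG1, JAG2) family on one cell binds a NOTCH receptor (NOTCH1 to NOTCH4) on another, the receptor is cleaved, and its intracellular part enters the nucleus, where it binds the DNA-binding protein RBPJ and recruits a Mastermind-like coactivator such as MAML2 to switch on HES and HEY genes. In the developing nervous system this route holds back neuronal differentiation, and in neuroblastoma it has been tied to the mesenchymal cell state.

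Chromatin accessibility at these 10 genes was examined in the established neuroblastoma cell line SK-N-BE(2) with ATAC-seq, in which the Tn5 transposase cuts and tags open DNA so that read counts rise with accessibility. The members are the consensus ATAC-seq sites that the deposited annotation assigns to one of the 10 genes, its nearest by transcription start site (TSS): 43 of 367900 sites. All cells had been transduced with lentiviral particles 72 h before collection. The 7 groups of 3 libraries were Control (a non-silencing shRNA), shARID1A.2 and shARID1A.4 (ARID1A silenced), shARID1B.2 and shARID1B.3 (ARID1B silenced), and shARID1A/B.2.3 and shARID1A/B.4.2 (both silenced). ARID1A and ARID1B are alternative subunits of BAF, a complex that moves nucleosomes, and the comparisons ask where accessibility depends on one, the other or both. ATAC-seq reads do not measure the knockdown, so the silencing of ARID1A and ARID1B could not be checked here. The submitters' design text describes the 3 libraries of a group as biological triplicates.

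The libraries held 16140029 to 44472230 reads in sites and 3346 to 8765 reads in the 43 member sites. In Control, a site within 1000 bases of the TSS was found for 8 adrenergic neuroblastoma genes (HAND2 and PHOX2A among them, median 19.6 CPM, reads scaled to library size), for 6 of 8 mesenchymal genes (SNAI2 and FN1 among them, median 33.8 CPM) and for 2 of 8 genes of other cell types, EPCAM at 6.62 CPM and MYOD1 at 12.7 CPM. The blood marker PTPRC and the endothelial marker PECAM1 had no such site under their own name. Values are from a bulk population, in which fewer open cells and less opening per cell cannot be told apart.

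The sites belonged unevenly to the genes. JAG1 had 9, DLL4 had 7, JAG2 and MAML2 had 5 each, NOTCH2 and NOTCH4 had 4 each, DLL1 and NOTCH3 had 3 each, NOTCH1 had 2 and DLL3 had 1. By annotation class, 20 were intergenic, 15 intronic, 4 exonic, 2 at transcription termination sites and 2 at promoters. All 43 passed the filter on low counts.

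The sequences that follow are the central 300 bases of 5 sites that closed after combined silencing: both NOTCH2 upstream sites, a pair of sites within JAG1 and the site within MAML2 with the largest fall. They are shown because the losses described in the next paragraphs lie on them. Each is the plus strand of GRCh38, and capitals mark the letters of any of 6 searched motifs on either strand: the RBPJ motif GTGGGAA, the AP-1 motif TGANTCA, the motif of GATA-binding proteins AGATAA, an E-box CAGCTG, another E-box CATCTG and the TEAD motif GGAATG.
NOTCH2, 16796 bases upstream, chr1:120117395-120117694: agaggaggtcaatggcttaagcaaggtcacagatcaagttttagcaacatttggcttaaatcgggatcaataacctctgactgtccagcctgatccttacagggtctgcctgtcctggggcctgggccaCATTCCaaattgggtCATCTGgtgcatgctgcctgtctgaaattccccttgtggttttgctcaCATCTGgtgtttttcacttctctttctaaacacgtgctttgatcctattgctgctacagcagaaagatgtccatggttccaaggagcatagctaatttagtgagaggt
NOTCH2, 23677 bases upstream, chr1:120124276-120124575: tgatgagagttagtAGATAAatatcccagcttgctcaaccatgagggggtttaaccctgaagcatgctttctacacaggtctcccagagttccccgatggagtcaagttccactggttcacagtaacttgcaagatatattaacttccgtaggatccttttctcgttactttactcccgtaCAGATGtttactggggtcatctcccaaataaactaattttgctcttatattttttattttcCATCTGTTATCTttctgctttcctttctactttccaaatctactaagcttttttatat
JAG1, exon 20 and flanks, chr20:10643640-10643939: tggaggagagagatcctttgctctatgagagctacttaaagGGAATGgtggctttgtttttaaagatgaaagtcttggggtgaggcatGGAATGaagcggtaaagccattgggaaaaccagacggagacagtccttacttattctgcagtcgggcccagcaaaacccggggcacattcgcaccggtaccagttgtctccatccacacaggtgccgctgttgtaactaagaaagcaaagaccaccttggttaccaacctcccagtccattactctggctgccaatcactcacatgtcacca
JAG1, intron 5, chr20:10654469-10654768: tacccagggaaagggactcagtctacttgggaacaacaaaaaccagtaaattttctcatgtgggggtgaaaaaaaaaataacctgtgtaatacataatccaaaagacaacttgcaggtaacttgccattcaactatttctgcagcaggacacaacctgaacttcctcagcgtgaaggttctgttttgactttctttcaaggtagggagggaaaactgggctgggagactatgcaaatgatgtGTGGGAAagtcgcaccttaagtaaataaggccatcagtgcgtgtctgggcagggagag
MAML2, intron 1, chr11:96127602-96127901: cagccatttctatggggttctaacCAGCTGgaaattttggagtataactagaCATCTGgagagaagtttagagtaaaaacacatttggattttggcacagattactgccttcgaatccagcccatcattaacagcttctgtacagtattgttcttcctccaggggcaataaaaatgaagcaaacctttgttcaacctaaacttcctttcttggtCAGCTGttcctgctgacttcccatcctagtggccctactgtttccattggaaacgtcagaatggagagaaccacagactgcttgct
The RBPJ motif occurred in 1 of these 5 windows (JAG1 intron 5) and in 1 of the 43 member windows (2.33%), against 6.82% of the windows of all tested sites. An AP-1 motif was in none of the 5 windows shown, in 4 of the 43 (9.30%) and in 10.9% of all windows. CATCTG, which can hold basic helix-loop-helix proteins such as TWIST1, was in both NOTCH2 windows and the MAML2 window, in 9 of 43 member windows (20.9%) and in 23% of all. A motif match describes letters only.

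In Control, accessibility was compared per kilobase at the site nearest to each TSS among those named for the gene. It was highest at JAG1 (14.1 ± 0.183 CPM per kb, SD, n = 3) and MAML2 (13.5 ± 0.441), whose libraries overlapped. DLL1 (6.29 ± 0.811) and DLL4 (3.85 ± 0.821) followed, each apart from its neighbours. NOTCH3 (2.50 ± 0.533), JAG2 (2.50 ± 0.645) and DLL3 (2.05 ± 0.326) overlapped in that order, and NOTCH4 was lower (0.750 ± 0.166). The nearest named sites of NOTCH2 (0.741 ± 0.202) and NOTCH1 (0.716 ± 0.129) overlapped NOTCH4, but they lie 5031 bases upstream of NOTCH2 and 9956 bases inside NOTCH1 and so do not measure a promoter. The site over the NOTCH1 promoter, which the annotation names after the microRNA gene MIR4674, held 9.84 ± 1.19 CPM in Control over 2583 bases. No consensus site covered the NOTCH2 TSS. NOTCH2 has near-identical partial copies on the same chromosome, and how reads shared with them were counted was not tested.

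**Figure D1:**
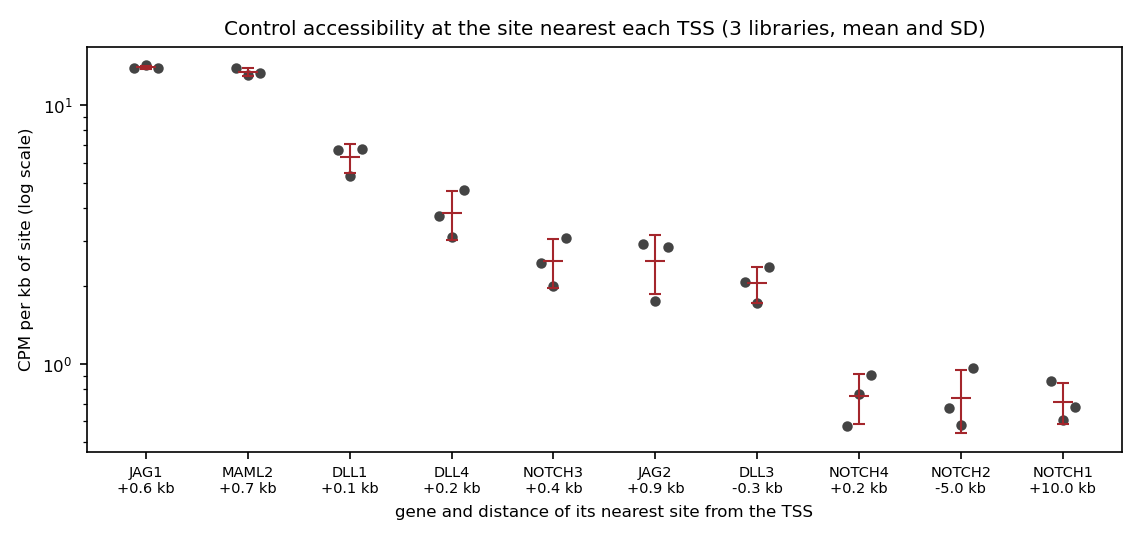
Control accessibility at the site nearest the TSS of each gene among those named for it, in CPM per kilobase of site on a log scale, with 3 library points and the mean and SD as bars. The NOTCH1 promoter site, named for MIR4674, is not plotted. JAG1 and MAML2 sit together near 14, and NOTCH4, NOTCH2 and NOTCH1 sit together below 1; the NOTCH2 and NOTCH1 sites are 5031 and 9956 bases from the start.

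After combined silencing (the mean of both combinations against Control), 2 of the 43 sites closed, both upstream of NOTCH2, and 2 opened, over the starts of JAG1 and JAG2. Over all 357029 tested sites, 10.3% closed and 3.43% opened at a false discovery rate (FDR) under 0.01, and the members' shares, 4.65% in each direction, were below that background for closing and near it for opening. The median log2 change of the 43 sites was -0.14 against 0.03 for all sites, 26 of 43 lay below zero, and 6 fell and 6 rose at an unadjusted p under 0.05.

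**Figure D2:**
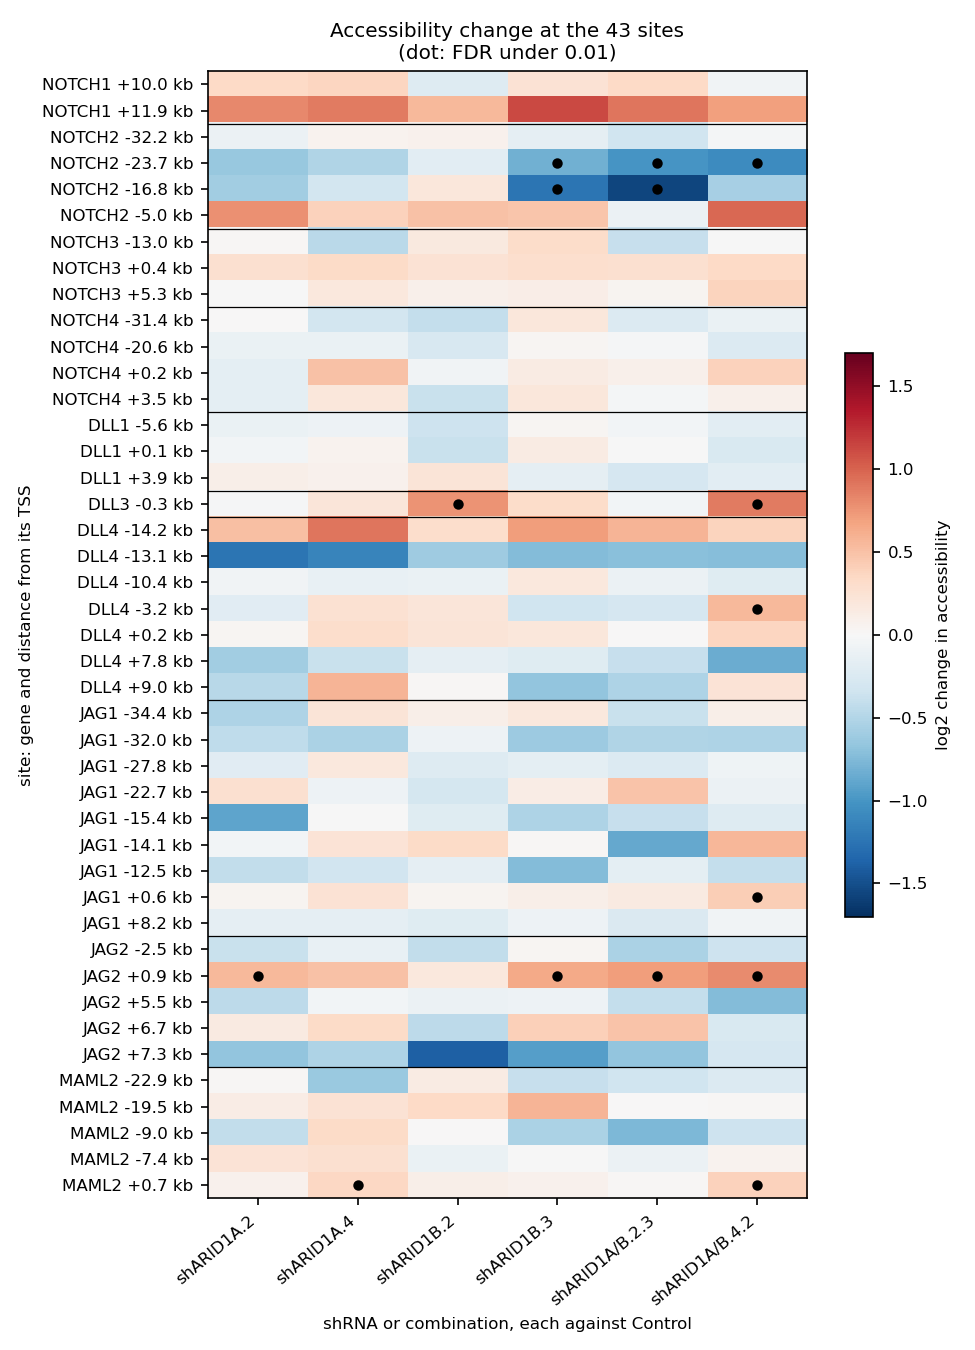
Log2 change of the 43 sites (rows, by gene and signed distance from the TSS in kb) in each silenced group against Control (columns); blue is lower, red is higher, and a dot marks FDR under 0.01. Dots lie on NOTCH2 at 16796 and 23677 bases upstream (lower) and on the start sites of DLL3, JAG1, JAG2 and MAML2 and the DLL4 site 3155 bases upstream (higher).

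At the member sites, NOTCH2 was the one receptor with calls. At the site 16796 bases upstream (chr1:120117093-120117995, intergenic), Control libraries held 2.60, 1.44 and 2.29 CPM, shARID1A/B.2.3 held 1.02, 0.581 and 0.528, and shARID1A/B.4.2 held 1.12, 1.61 and 1.53. The 3 shARID1A/B.2.3 libraries lay below every Control library, whereas those of shARID1A/B.4.2 overlapped the Control range. The combined log2 change was -1.06 ± 0.20 (SE, FDR = 9.28e-06), made of -1.55 ± 0.24 with shARID1A/B.2.3 (FDR = 8.53e-08) and -0.56 ± 0.22 with shARID1A/B.4.2 (FDR = 0.0769), and the combinations differed from each other by -1.0 ± 0.26 (FDR = 0.00498). That difference was lost with promoter scaling, total counts and DESeq2 (FDR = 0.0325, 0.0123 and 0.0106) and without replicate 2 or 3 of either combination (FDR = 0.0231 to 0.0656). Among single shRNAs, it fell with shARID1B.3 by a log2 change of -1.24 ± 0.22 (FDR = 1.08e-05), with 0.670, 1.17 and 0.714 CPM. With shARID1B.2 the change was 0.19 ± 0.21 (FDR = 0.699). By its numbers, shARID1A/B.2.3 carries the ARID1B hairpin of shARID1B.3, and shARID1A/B.4.2 that of shARID1B.2. Differences between hairpins against the same gene cannot be told apart here from differences in knockdown.

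The second NOTCH2 site, 23677 bases upstream (chr1:120123904-120124947, intergenic), fell with both combinations. Control libraries held 2.17, 1.36 and 2.00 CPM, shARID1A/B.2.3 held 0.788, 1.05 and 0.835, and shARID1A/B.4.2 held 0.941, 1.01 and 0.649. All 6 combination libraries lay below all 3 Control libraries. The combined log2 change was -1.04 ± 0.19 (FDR = 1.06e-05), with -1.01 ± 0.22 and -1.07 ± 0.24 for shARID1A/B.2.3 and shARID1A/B.4.2. It was also lower with shARID1B.3 (-0.82 ± 0.21, FDR = 0.00305), a call lost with DESeq2 (FDR = 0.0232) and without Control replicate 1 or 3 or shARID1B.3 replicate 1 or 2 (FDR = 0.0151 to 0.0410), while the other single shRNAs gave changes of -0.64 to -0.18 that did not pass. The combined falls at both NOTCH2 sites passed in each of 20 alternative fits, at -1.28 to -0.89 for the nearer and -1.27 to -0.92 for the farther site. The remaining NOTCH2 sites, 5031 and 32160 bases upstream, were not called, at 0.44 ± 0.33 and -0.19 ± 0.15.

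For NOTCH1, NOTCH3 and NOTCH4, no member site was called in the combined contrast by the main edgeR fit, with 1, 1 and 0 at an unadjusted p under 0.05. The 2 NOTCH1 sites in its introns gave combined log2 changes of 0.80 ± 0.34 (FDR = 0.0887) and 0.14 ± 0.18, and the NOTCH1 promoter site gave 0.22 ± 0.11 (FDR = 0.159). At the NOTCH3 start site, Control held 5.05 ± 1.08 CPM, shARID1A/B.2.3 held 6.18 ± 1.09 and shARID1A/B.4.2 held 6.42 ± 0.944, a log2 change of 0.31 ± 0.13 (FDR = 0.0811) with overlapping libraries. It passed with abundance offsets (0.45, FDR = 0.00208) and without shARID1A/B.2.3 replicate 2 (0.41, FDR = 0.00817). NOTCH4, the receptor of endothelial cells, held 0.563 ± 0.125 CPM at its start in Control and changed by 0.24 ± 0.28.

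Among ligands, the JAG2 start site (chr14:105166613-105169324, over the first exons) showed the larger of the called rises in the combined contrast. Control libraries held 7.89, 4.77 and 7.70 CPM, shARID1A/B.2.3 held 12.8, 8.83 and 11.9, and shARID1A/B.4.2 held 11.9, 11.3 and 12.1. All 6 combination libraries exceeded all Control libraries, although the lowest of them, at 8.83 CPM, was close to the highest Control library. The log2 change was 0.76 ± 0.12 (FDR = 2.30e-07) with both combinations averaged, 0.71 ± 0.13 with shARID1A/B.2.3 and 0.80 ± 0.14 with shARID1A/B.4.2. It also passed with shARID1A.2 (0.55 ± 0.14, FDR = 0.00314) and shARID1B.3 (0.65 ± 0.13, FDR = 0.000134), but not with shARID1A.4 (0.50 ± 0.14, FDR = 0.0103) or shARID1B.2 (0.17 ± 0.14, FDR = 0.591). Without Control replicate 2, the lowest Control library, both single-shRNA calls were lost (FDR = 0.0855 and 0.0114), as they were with GC offsets and DESeq2, and that with shARID1A.2 also without its replicate 1 or 3 (FDR = 0.104 and 0.0173). The call with shARID1A/B.4.2 alone was lost with GC offsets (0.31, FDR = 0.0229). The combined rise passed in each of 20 alternative fits, at 0.38 to 0.87. The other 4 JAG2 sites held 0.492 to 0.815 CPM in Control and were not called.

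The JAG1 start site (chr20:10671722-10675110, from the promoter into intron 1) was the most accessible of the 43. It held 47.4, 48.4 and 47.2 CPM in Control, 51.0, 55.8 and 52.8 with shARID1A/B.2.3 and 64.2, 63.7 and 62.5 with shARID1A/B.4.2. The groups did not overlap, and the replicate spread was narrow. The combined log2 change was 0.29 ± 0.07 (FDR = 0.000711), with 0.41 ± 0.08 for shARID1A/B.4.2 (FDR = 1.96e-05) and 0.16 ± 0.08 for shARID1A/B.2.3 (FDR = 0.149). This small rise depended on the scaling: with TMM factors from promoter sites it was 0.05 (FDR = 0.619), with offsets that follow abundance 0.01 (FDR = 0.920) and with offsets that follow GC content 0.09 (FDR = 0.400), and the shARID1A/B.4.2 call was lost in the same 3 fits. Promoter scaling moved the median of all sites by -0.23, and with it 95.6% of the calls over all sites were lower, against 74.9% otherwise. The JAG1 sites upstream held 0.324 to 2.31 CPM in Control. Of these, the one 32007 bases upstream had all 6 combination libraries below Control (2.31 ± 0.383 against 1.60 ± 0.0555 and 1.60 ± 0.353 CPM), with a log2 change of -0.52 ± 0.17 that missed the threshold (FDR = 0.0203).

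DLL3, an atypical ligand that acts within the cell and is a neuroendocrine marker, had 1 site, over its promoter (chr19:39497755-39499545). Control libraries held 3.71, 3.08 and 4.25 CPM, shARID1A/B.2.3 held 3.84, 3.04 and 4.04, and shARID1A/B.4.2 held 6.68, 6.21 and 7.51. Only shARID1A/B.4.2 among the combinations stood apart from Control, by 0.88 ± 0.14 (FDR = 8.31e-07), and the combinations differed by -0.92 ± 0.14 (FDR = 2.99e-07). Libraries of shARID1B.2 held 6.02, 7.62 and 5.34 CPM, a log2 change of 0.77 ± 0.15 (FDR = 0.000120), whereas shARID1B.3 gave 0.31 ± 0.15 (FDR = 0.168). The averaged ARID1B change was 0.54 ± 0.13 (FDR = 0.00209), lost with promoter scaling (FDR = 0.0226) and without Control replicate 1 or 2 or shARID1B.2 replicate 2 (FDR = 0.0126 to 0.0478), and the combined change was 0.42 ± 0.13 (FDR = 0.0120). The combined change passed in 9 of 20 alternative fits, among them the replicate block (0.42, FDR = 0.00753), total counts (FDR = 0.00741), abundance offsets (FDR = 0.000155), no filter (FDR = 0.00774), a mean of at least 1 CPM (FDR = 0.00253) and 4 fits without 1 library (Control replicate 3, shARID1A/B.2.3 replicate 2, or shARID1A/B.4.2 replicate 1 or 2, FDR = 0.000952 to 0.00983). The averaged ARID1A change was lower than the ARID1B change by a log2 difference of -0.45 ± 0.10 (FDR = 0.00132), and leaving out any of 3 libraries (replicate 2 of shARID1A.4, replicate 2 of shARID1B.2 or replicate 1 of shARID1B.3) ended that call, at FDR of 0.0124, 0.0167 and 0.0112.

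DLL4 and DLL1 had no site called in the combined contrast. The DLL4 site 3155 bases upstream (chr15:40925797-40926559) held 4.14, 2.92 and 4.37 CPM in Control, 3.87, 2.37 and 3.30 with shARID1A/B.2.3 and 4.97, 5.02 and 6.68 with shARID1A/B.4.2. It rose by 0.55 ± 0.16 with shARID1A/B.4.2 (FDR = 0.00822), changed by -0.29 ± 0.16 with shARID1A/B.2.3 (FDR = 0.231), and differed between them by -0.83 ± 0.16 (FDR = 4.70e-05). The rise against Control was lost with promoter scaling (0.22, FDR = 0.313), GC offsets (0.20, FDR = 0.383), total counts (FDR = 0.0106), DESeq2 (FDR = 0.0377) and without Control replicate 1 or 2 or shARID1A/B.4.2 replicate 3 (FDR = 0.0110, 0.0789 and 0.154), whereas the difference between the combinations passed in each fit run. At the DLL4 start, accessibility was 10.8 ± 2.29 CPM in Control and 10.9 ± 1.33 and 13.8 ± 0.466 with the combinations (0.19 ± 0.10, FDR = 0.219). At the DLL1 start, it was 18.9 ± 2.44 CPM in Control and 18.8 ± 2.67 and 15.8 ± 0.405 with the combinations (-0.13 ± 0.09, FDR = 0.329); GC offsets turned that into a called fall of -0.41 (FDR = 2.24e-06).

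MAML2 encodes a coactivator of the NOTCH nuclear complex. Its start site (chr11:96341298-96343696) held 33.5, 31.5 and 31.9 CPM in Control, 31.6, 34.1 and 32.3 with shARID1A/B.2.3 and 42.1, 40.6 and 44.9 with shARID1A/B.4.2. Only shARID1A/B.4.2 lay above Control, by 0.40 ± 0.08 (FDR = 0.000120), and the combinations differed by -0.38 ± 0.08 (FDR = 0.000507). The single shRNA shARID1A.4 gave 42.1, 41.6 and 39.8 CPM and a rise of 0.35 ± 0.08 (FDR = 0.00154), lost without Control replicate 3 or its own replicate 2 (FDR = 0.0105 and 0.0123). Promoter scaling reduced the shARID1A/B.4.2 rise to 0.07 (FDR = 0.495) and abundance offsets to 0.09 (FDR = 0.406), and the difference between the combinations was lost in both and without shARID1A/B.4.2 replicate 3 (FDR = 0.0128). Of the 8 members within 1000 bases of a TSS, 2 opened in the combined contrast and 7 lay above zero, while 31.8% of all such tested sites opened and 3.72% closed.

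**Figure D3:**
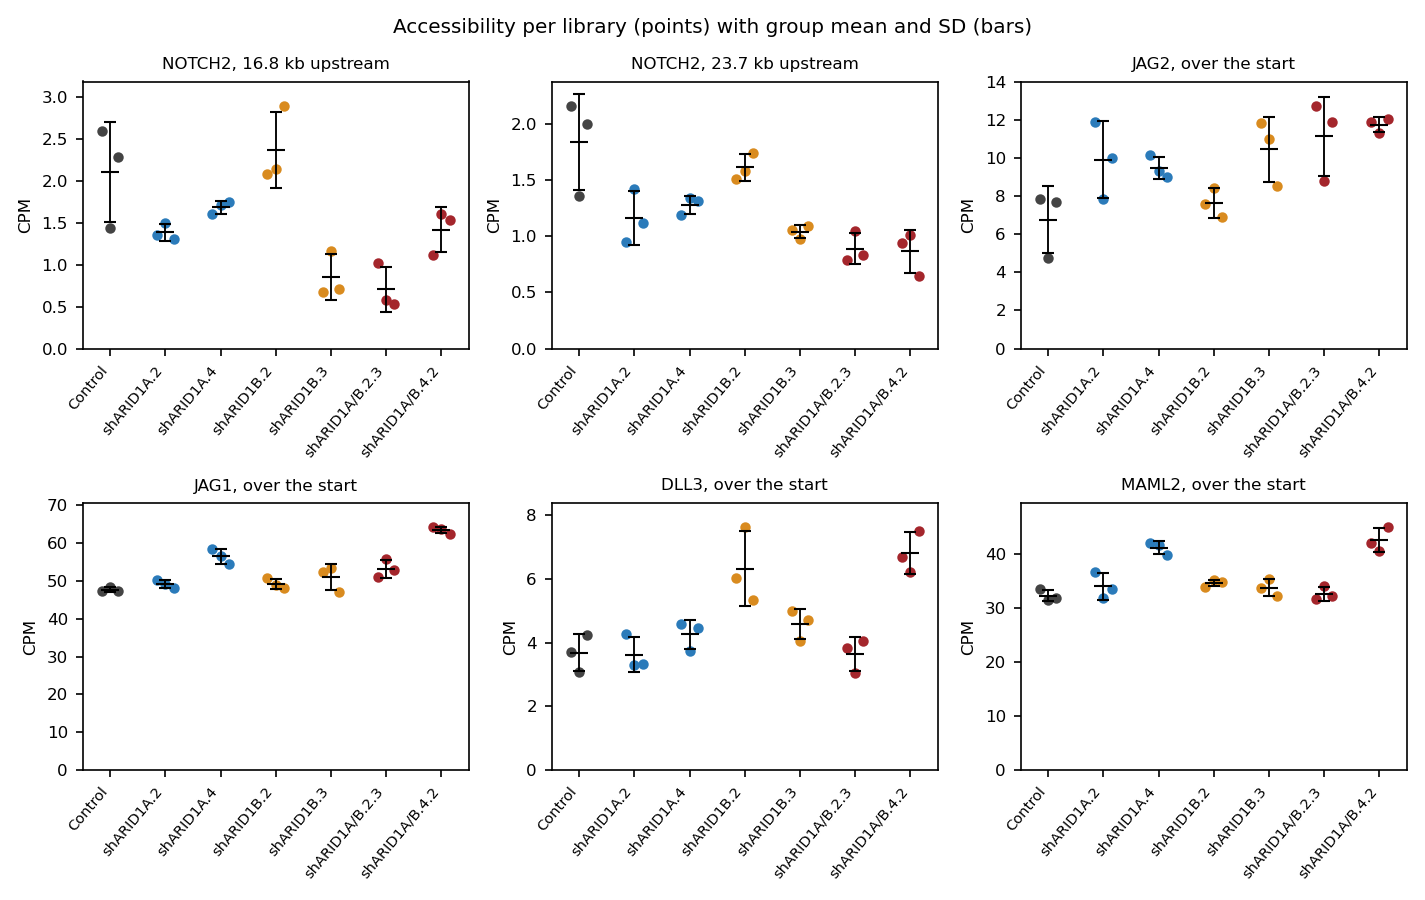
CPM in each of the 21 libraries (points) with the group mean and SD (bars) at 6 member sites, axes from 0. Combination libraries are low at the farther NOTCH2 site and high at JAG2. At the nearer NOTCH2 site shARID1A/B.2.3 lies below Control and shARID1A/B.4.2 overlaps it. At DLL3 and MAML2 the shARID1A/B.4.2 libraries alone among the combinations stand above Control.

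Counted over the members, shARID1A/B.2.3 against Control closed 2 and opened 1 of the 43 sites (all sites: 10.4% and 2.85%), and shARID1A/B.4.2 closed 1 and opened 5 (all sites: 7.37% and 3.97%). The NOTCH2 site at 23677 bases closed with both, and JAG2 opened with both. Tested directly, shARID1A/B.2.3 was lower than shARID1A/B.4.2 at 4 sites and higher at none by edgeR or DESeq2 (3 higher at an unadjusted p under 0.05; all sites: 3.79% lower and 1.43% higher). Promoter scaling moved the median of all sites in this comparison from 0.02 to 0.21 and turned the balance of all calls from 13521 lower and 5113 higher to 6443 lower and 11832 higher. With it, 2 members were lower, at DLL3 and DLL4, and 1 was higher. Averaged ARID1A silencing opened the JAG2 start only and closed none (all sites: 1.67% and 5.37%), with 4 sites lower at an unadjusted p under 0.05 and none by DESeq2. Averaged ARID1B silencing opened the DLL3 promoter only and closed none (all sites: 1.39% and 3.53%), likewise with 4 lower unadjusted and none by DESeq2. The JAG2 call with averaged ARID1A silencing (0.52 ± 0.12, FDR = 0.00103) was lost with DESeq2 (FDR = 0.027), promoter scaling (FDR = 0.0141) and GC offsets (FDR = 0.198). It was also lost with the replicate block and GC offsets together (FDR = 0.18) and without Control replicate 2 (FDR = 0.0735).

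Single shRNAs against Control called few members. shARID1A.2 opened 1, JAG2 (all sites: 0.834%), shARID1A.4 opened 1, MAML2 (2.28%), and shARID1B.2 opened 1, DLL3 (1.34%), and none of the 3 closed a member by edgeR or DESeq2, with 5, 4 and 3 sites lower at an unadjusted p under 0.05 against backgrounds of 4.54%, 4.17% and 1.84% closed. shARID1B.3 closed both NOTCH2 sites (4.88%) and opened JAG2 (3.12%).

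Set against the 4 single-shRNA groups, the combinations were lower at the NOTCH2 site 16796 bases upstream (-0.57 ± 0.15, FDR = 0.00449; all sites: 6.85%) and higher at JAG1 (0.18 ± 0.05, FDR = 0.00502) and JAG2 (0.29 ± 0.08, FDR = 0.00561; all sites: 0.969%). The NOTCH2 call was lost with DESeq2 (FDR = 0.0175) and without shARID1A/B.2.3 replicate 2 or 3, shARID1A/B.4.2 replicate 1, shARID1B.2 replicate 3 or shARID1B.3 replicate 2 (FDR = 0.0132 to 0.0451). The JAG1 call was lost with GC offsets, promoter scaling and abundance offsets (FDR = 0.0486, 0.0877 and 0.198) and without replicate 3 of shARID1A.2, shARID1A.4 or shARID1B.2, shARID1A/B.2.3 replicate 2 or any shARID1A/B.4.2 library (FDR = 0.0101 to 0.0156). The JAG2 call was lost with DESeq2, GC offsets and promoter scaling (FDR = 0.117, 0.0179 and 0.0147) and without shARID1A.2 replicate 2, shARID1A.4 replicate 2 or 3, replicate 1 or 3 of either combination, or replicate 3 of shARID1B.2 or shARID1B.3 (FDR = 0.0112 to 0.0433). ARID1A against ARID1B silencing was lower at 1 site, DLL3 (all sites: 3.69%), and higher at none by either tool (1.05%; 3 at an unadjusted p under 0.05). For no member did the combined change depart from both single changes added together by edgeR or DESeq2 (all sites: 0.376% lower and 0.140% higher), with 2 lower and 2 higher at an unadjusted p under 0.05 and a smallest FDR of 0.197.

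Because the annotation names a site after the nearest TSS, sites deep inside long genes take the names of microRNAs, lncRNAs or neighbours. A further 138 sites lay inside the 10 genes (GENCODE v44, or up to 1000 bases before the start) under another name, and 136 of them were tested. After combined silencing, 28 of these closed (20.6%) and 3 opened (2.21%), against the 10.3% and 3.43% of all sites. Of the closed sites, 23 lay in MAML2, 4 in JAG1 and 1 in NOTCH2, so the pooled share describes mainly MAML2. The shares of all sites were not matched to the class of these sites. This second set was defined after the members' values had been seen. MAML2 held 89 of these sites, 47 named for MIR1260B and 42 for MTMR2, NOTCH2 held 21 and NOTCH1 13.

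Along MAML2, a gene of 366598 bases with most of its length in intron 1, 23 of 89 sites closed and 1 opened after combined silencing. The opened site (0.27, FDR = 0.00176) lost its call with promoter scaling (0.04, FDR = 0.724), abundance offsets (0.03, FDR = 0.813) and without Control replicate 3 (FDR = 0.0180). The closed sites lay 22.4 to 331 kb into the gene and fell by log2 changes of -1.47 to -0.31. They were among the stronger sites, with a median of 9.33 CPM in Control against 1.77 CPM at the 65 sites not called. A call is harder to reach at a weak site, so the split by call favours this difference in level. Among intron sites with a mean of at least 1 CPM, 23 of 69 in MAML2 closed (33.3%), beside 20.1% of 75861 such sites over the genome. At the site with the largest fall (chr11:96126890-96128613, intron 1), Control libraries held 15.2, 14.6 and 14.6 CPM, shARID1A/B.2.3 held 4.70, 3.46 and 3.65, and shARID1A/B.4.2 held 7.53, 7.09 and 7.14. The log2 change was -1.47 ± 0.09 (FDR = 3.27e-24), and shARID1A/B.2.3 was lower than shARID1A/B.4.2 by -0.89 ± 0.13 (FDR = 4.91e-08). It fell by 1.17 on the log2 scale with shARID1A.2 (FDR = 5.97e-14) and by 0.83 with shARID1B.3 (FDR = 8.70e-10), and gave -0.31 ± 0.11 with shARID1A.4 (FDR = 0.0468) and -0.39 ± 0.11 with shARID1B.2 (FDR = 0.0128). Over the 89 sites, shARID1A/B.2.3 closed 27 (30.3%, all sites: 10.4%) and shARID1A/B.4.2 closed 15 (16.9%, all sites: 7.37%), with 14 closed by both. The single shRNA shARID1A.2 closed 13 (14.6%, all sites: 4.54%) and shARID1A.4 closed 1 (1.12%, all sites: 4.17%). shARID1B.2 closed 5 (5.62%, all sites: 1.84%) and shARID1B.3 closed 9 (10.1%, all sites: 4.88%). At the MAML2 start the combined change was 0.21 ± 0.07 (FDR = 0.0307). It passed with total counts (FDR = 0.00477), a mean of at least 1 CPM (FDR = 0.00124) and the replicate block with GC offsets (FDR = 0.00875), and was -0.02 with promoter scaling (FDR = 0.839).

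Inside JAG1, 4 of 6 sites under the name MIR6870 closed (all sites: 10.3%), all in the far part of the gene, 19.4 to 30.2 kb from its start. The site over exon 20 (chr20:10642337-10645241) held 17.9, 16.6 and 18.7 CPM in Control, 4.83, 4.46 and 5.01 with shARID1A/B.2.3 and 5.47, 6.12 and 6.40 with shARID1A/B.4.2. Every silenced library lay below every Control library, in all 6 silenced groups. The combined log2 change was -1.73 ± 0.09 (FDR = 1.39e-29), beside -1.09 ± 0.09 for ARID1A (FDR = 2.62e-17) and -0.96 ± 0.09 for ARID1B (FDR = 2.86e-15), and the combinations were lower than the singles by -0.70 ± 0.07 (FDR = 6.34e-13). The departure from the sum of both single changes was 0.32 ± 0.12 and not called (FDR = 0.192).

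The JAG1 intron 5 site (chr20:10653912-10655325) differed between ARID1A and ARID1B silencing. It held 11.3, 10.6 and 10.02 CPM in Control, 8.78, 8.12 and 8.0 with shARID1A.2, 6.91, 7.67 and 6.39 with shARID1A.4, and 9.52 to 12.7 over the 6 ARID1B libraries, which overlapped Control. With the combinations it held 4.89 to 6.68 CPM over 6 libraries, below every Control, shARID1A.2 and ARID1B library and overlapping shARID1A.4. The log2 change was -0.48 ± 0.10 for ARID1A (FDR = 0.000162), 0.02 ± 0.09 for ARID1B (FDR = 0.934) and -0.91 ± 0.10 for both (FDR = 1.02e-12). ARID1A silencing was lower than ARID1B silencing by -0.50 ± 0.08 (FDR = 1.59e-06), and the departure from the sum, at -0.45 ± 0.13, missed the threshold (FDR = 0.0501).

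**Figure D4:**
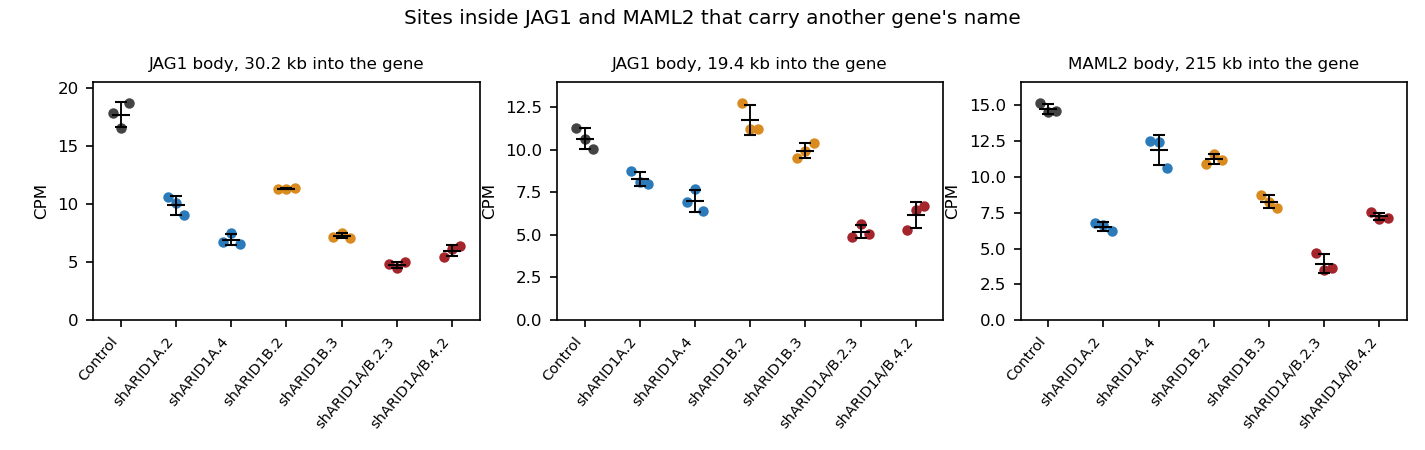
CPM per library (points), with group mean and SD (bars), at 3 sites inside JAG1 and MAML2 that carry another gene's name, axes from 0. At the JAG1 exon 20 site every silenced library is below Control, at the JAG1 intron 5 site (19.4 kb) the ARID1B libraries overlap Control, and at the MAML2 site shARID1A.2 and shARID1A/B.2.3 are lowest.

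Of 20 tested sites within NOTCH2, 1 closed (all sites: 10.3%), an intronic site at -0.50 ± 0.14 (FDR = 0.00418) whose call was lost under DESeq2 (FDR = 0.0180), with abundance offsets (FDR = 0.0387) and without Control replicate 2 or 3, shARID1A/B.2.3 replicate 1 or 2, or shARID1A/B.4.2 replicate 1 or 3 (FDR = 0.0120 to 0.0684). It was lower with shARID1A/B.2.3 than with shARID1A/B.4.2 by -0.79 ± 0.17 (FDR = 0.000289). None of the 12 tested NOTCH1 sites was called by edgeR, and 3 had an unadjusted p under 0.05. The uncalled sites were weak, with a median in Control of 0.869 CPM in NOTCH2 and 1.15 CPM in NOTCH1. An exonic site in NOTCH3 rose by 0.51 ± 0.15 (FDR = 0.00538) and one in DLL3 by 0.52 ± 0.15 (FDR = 0.00609), and both calls were lost with promoter scaling (FDR = 0.159 and 0.151), GC offsets (FDR = 0.0510 and 0.0518) and DESeq2 (FDR = 0.0205 and 0.0231), that at DLL3 also with only the compared groups (FDR = 0.0129). Both were lost without Control replicate 1 or 2 or shARID1A/B.4.2 replicate 1, that at NOTCH3 also without shARID1A/B.2.3 replicate 3 and that at DLL3 without its replicate 1 (FDR = 0.0101 to 0.110 over these left-out libraries).

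**Figure D5:**
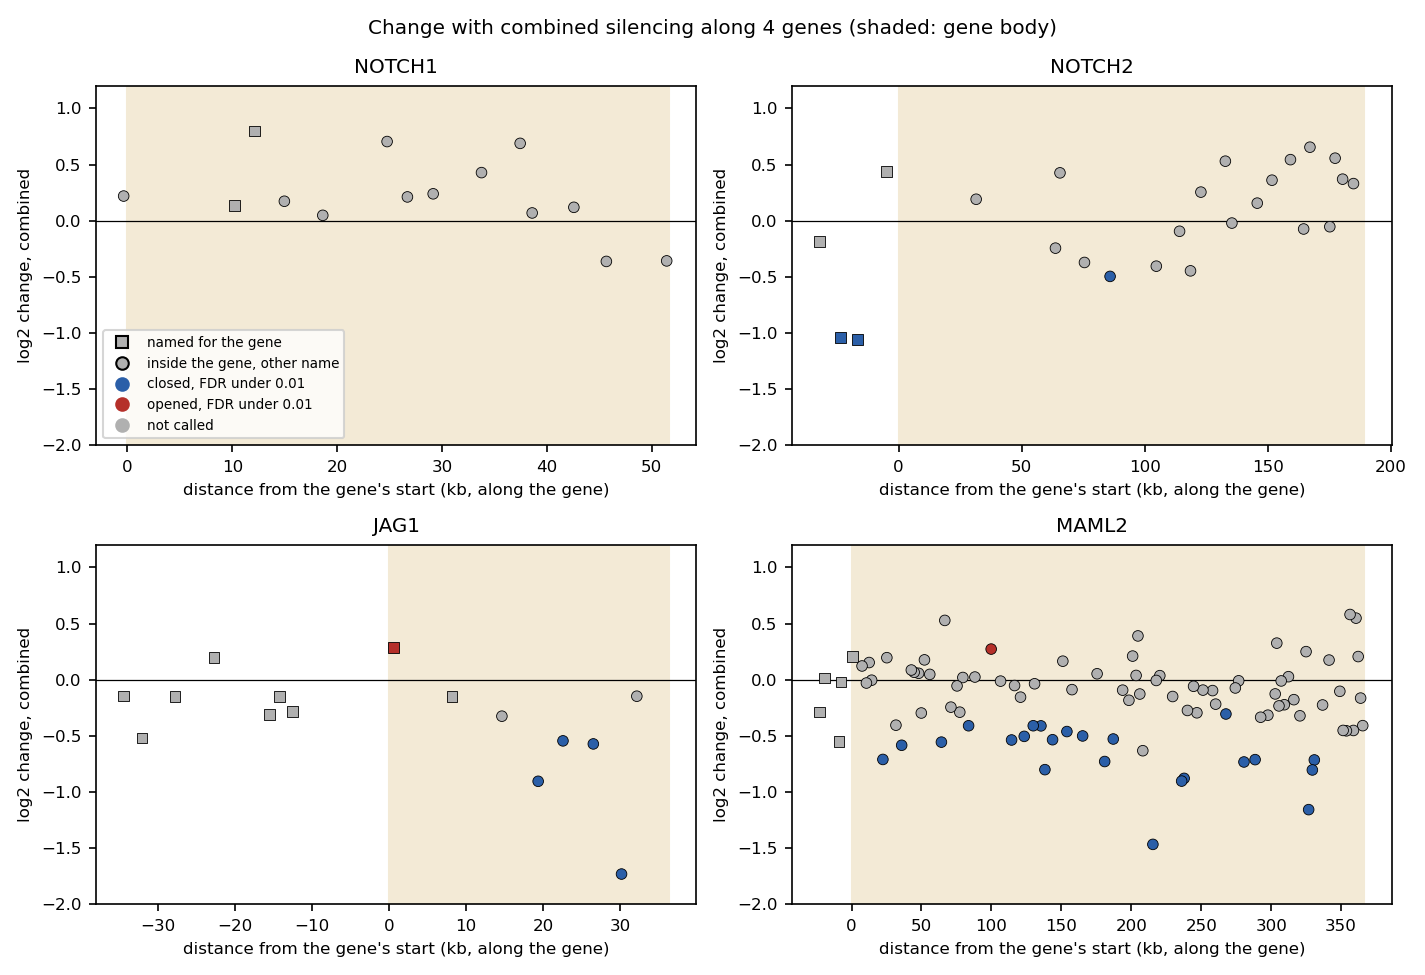
Log2 change after combined silencing at each tested site along NOTCH1, NOTCH2, JAG1 and MAML2, against distance from the gene's start in kb (shaded: gene body). Squares are sites named for the gene and circles sites under another name; blue marks closed and red opened sites at FDR under 0.01, and blue circles run along MAML2 and gather in the far part of JAG1.

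The rest of the pathway, taken from a list of roles, carried 393 sites, of which 385 were tested, 48 closed (12.5%) and 38 opened (9.87%) after combined silencing, beside 10.3% and 3.43% of all sites. Of 61 tested sites at genes listed as targets, whose response to NOTCH was not tested here, 10 closed and 9 opened. The closed site with the smallest p was at HES6 (chr2:238242856-238243552), a HES family member that promotes neuronal differentiation, where Control held 9.01 ± 1.26 CPM, shARID1A/B.2.3 held 3.21 ± 0.352 and shARID1A/B.4.2 held 2.48 ± 0.352 (-1.68 ± 0.12, FDR = 1.69e-22). The opened site with the smallest p was near the start of HES1 (chr3:194133781-194136216), the classical NOTCH target, which went from 58.1 ± 3.62 to 76.3 ± 2.26 and 99.5 ± 5.67 CPM (0.59 ± 0.07, FDR = 5.61e-11). Among the 16 tested sites named for HES1, 3 closed and 3 opened, the described site included.

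The counts by role that follow stand beside 10.3% closed and 3.43% opened of all tested sites, and the sites named are those of smallest p. Genes of the nuclear complex had 129 tested sites, with 23 closed and 15 opened. The promoter of RBPJ rose from 80.2 ± 4.32 CPM to 110.7 ± 6.70 and 121.4 ± 1.28 (0.53 ± 0.07, FDR = 2.26e-10), and among the 54 tested sites named for RBPJ 7 closed and 4 opened, the promoter included. The closed site with the smallest p was in an intron of the acetyltransferase gene KAT2B, from 11.7 ± 0.783 to 2.81 ± 0.143 and 5.67 ± 0.135 CPM (-1.55 ± 0.10, FDR = 8.55e-24). Genes that cleave the receptor had 31 tested sites, 3 closed and 5 opened, led by an exonic APH1B site, a subunit gene of gamma-secretase (-1.78 ± 0.18, FDR = 4.34e-14), and the APH1A start (0.53 ± 0.09, FDR = 9.01e-07). Genes that add sugars to the receptor had 20, with 5 closed, led by an intronic LFNG site (-1.30 ± 0.17, FDR = 1.52e-09), and 3 opened, led by the POFUT1 promoter (0.38 ± 0.09, FDR = 0.000586). Genes of trafficking and turnover had 51, with 4 closed and 4 opened, and DTX4 led both, an intronic site falling (-1.42 ± 0.15, FDR = 1.68e-13) and its promoter rising (0.34 ± 0.08, FDR = 0.000234). Non-canonical ligand genes had 93, with 3 closed and 2 opened, all at DNER, led by an intronic fall from 14.0 ± 1.48 to 7.83 ± 0.851 and 6.07 ± 0.678 CPM (-1.02 ± 0.09, FDR = 1.07e-15). The named rises at RBPJ, APH1A, POFUT1 and DTX4 lay within 1000 bases of a TSS, and that at HES1 just beyond. Of all tested sites within 1000 bases of a TSS, 31.8% opened. Values at the pathway sites are from the main fit only, and promoter scaling moved the median of all sites by -0.23.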

How the data were processed

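ATAC-seq of SK-N-BE(2) cells was available for 21 libraries in 7 groups of 3. The authors deposited raw read counts per consensus site (reads aligned to GRCh38 per the labels; the aligner and peak caller: not given in the sources used here) and a HOMER annotation of the sites; 192 sites without a gene name could not be members. The same tables hold the authors' DESeq2 fold changes, p-values and adjusted p-values, which were not used. Deposited counts were tested with edgeR 4.0.16 (R 4.3.3) quasi-likelihood fits over all 21 libraries, with TMM scaling and filterByExpr (minimum count 10), which removed 10871 sites. Benjamini-Hochberg FDR was taken over all 357029 tested sites, with a threshold of 0.01. The common biological coefficient of variation was 0.0817. Standard errors are the log2 change divided by the root of F, and CPM values are TMM-scaled.

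Members and lists were chosen with earlier results of these data known. Named sites were, for each gene, the one nearest its TSS and the closed and the opened site of smallest p in the combined contrast; other member sites called in any contrast were added, as were the direct test between the combinations and the sites inside the genes, after values had been seen. Pathway sites were those of smallest p in each direction per role. Windows of 300 bases were read from the GRCh38 sequence with bedtools 2.31.1, and genes from GENCODE v44. Alternatives were DESeq2 (version 1.42.0), other scalings (DESeq2 size factors, total counts, TMM on promoter sites, abundance-trended and GC offsets), other filters and thresholds, a replicate block, the compared groups alone, and leaving out each library. P-values measure the spread between libraries of 1 cell line.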

Additional observations from a re-analysis of the deposited data

Results flagged for a closer look

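Several log2 changes differed between the combinations or between ARID1A and ARID1B silencing by a direct edgeR test with Benjamini-Hochberg adjustment. With shARID1A/B.2.3 less shARID1A/B.4.2, the difference was -1.0 at the NOTCH2 site 16796 bases upstream (FDR = 0.00498), -0.79 at the intronic NOTCH2 site (FDR = 0.000289), -0.83 at the DLL4 site 3155 bases upstream (FDR = 4.70e-05), -0.92 at the DLL3 promoter (FDR = 2.99e-07), -0.38 at the MAML2 start (FDR = 0.000507) and -0.89 at the MAML2 intron 1 site (FDR = 4.91e-08). In each of the 6, accessibility was lower with shARID1A/B.2.3. Over all tested sites, 3.79% were called lower and 1.43% higher in this comparison. Promoter scaling turned the calls over all sites to 6443 lower and 11832 higher. With it, the calls at the NOTCH2 site 16796 bases upstream and the MAML2 start were lost.

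With ARID1A less ARID1B silencing, the difference was -0.45 at the DLL3 promoter (FDR = 0.00132), where the ARID1B change was a rise, and -0.50 at the JAG1 intron 5 site (FDR = 1.59e-06), where the ARID1A change was a fall. The part of the single hairpins in these differences was not tested.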

How the results depend on the processing

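The combined falls at the NOTCH2 sites 16796 and 23677 bases upstream and the combined rise at JAG2 passed the threshold in the main fit and in each of 20 other fits. The counts of called members are small, so that 1 site near the threshold moves them. The counts that moved by over 1.5 times follow by setting: members called lower or higher against Control unless another comparison is named, and sites inside the genes called in the combined contrast. The cause was not tested. TMM on promoter sites moved the median log2 change over all sites by -0.23 and left 56825 lower and 2601 higher calls in the combined contrast, against 36610 and 12247. Of 357029 tested sites, it called 53888 lower with shARID1A/B.4.2 and 34100 lower with ARID1A silencing, against 26324 and 19189 in the main fit. Calls over all sites thus moved with this setting as well, and a moved member count is not read as particular to the members.

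With TMM on promoter sites, lower members numbered 6 for combined silencing, 7 for shARID1A/B.4.2, 4 for ARID1A, 1 for ARID1B, 2 for shARID1A.4, shARID1B.2 and shARID1A/B.2.3 against shARID1A/B.4.2 and 3 for combined against single, and higher members numbered 1 for combined silencing and shARID1A/B.2.3 against shARID1A/B.4.2, 2 for shARID1A/B.4.2 and 0 for ARID1A, ARID1B, shARID1A.4 and combined against single, and 0 opened sites inside the genes were counted. With GC offsets, lower members numbered 4 for combined silencing, 3 for shARID1A/B.4.2, 2 for ARID1A, ARID1B, shARID1B.2 and combined against single and 1 for shARID1A.4, and higher members numbered 1 for combined silencing, 2 for shARID1A/B.4.2 and shARID1A/B.2.3 against shARID1A/B.4.2 and 0 for ARID1A, shARID1A.2, shARID1B.3 and combined against single. With abundance-trended offsets, lower members numbered 2 for shARID1A/B.4.2 and shARID1B.2, and higher members numbered 2 for shARID1A/B.2.3 and ARID1B, 3 for shARID1A/B.4.2 and 1 for combined against single and shARID1A/B.2.3 against shARID1A/B.4.2, and 6 opened sites inside the genes were counted. With DESeq2, lower members numbered 1 for shARID1B.3 and 0 for combined against single, and higher members numbered 0 for ARID1A, shARID1A.2 and shARID1B.3, 2 for shARID1A.4 and 1 for combined against single, and 1 opened site inside the genes was counted. With DESeq2 size factors in edgeR, higher members numbered 2 for shARID1A.4. With total counts, lower members numbered 1 for shARID1B.2, and higher members numbered 4 for combined silencing, 2 for ARID1B and shARID1A.4 and 1 for shARID1A/B.2.3 against shARID1A/B.4.2, and 5 opened sites inside the genes were counted. With only the compared groups, higher members numbered 2 for ARID1B and shARID1A.4. With no filter, higher members numbered 2 for shARID1A.4, and 5 opened sites inside the genes were counted. With a mean of at least 1 CPM, lower members numbered 1 for shARID1B.2, and higher members numbered 4 for combined silencing, 2 for shARID1A/B.2.3, ARID1A and ARID1B and 3 for shARID1A.4, and 8 opened sites inside the genes were counted. With an FDR under 0.05, lower members numbered 2 for ARID1A and shARID1B.2, 1 for ARID1B and shARID1A.2, 3 for combined against single and 9 for shARID1A/B.2.3 against shARID1A/B.4.2, and higher members numbered 4 for combined silencing, 2 for ARID1A, ARID1B and shARID1B.3 and 3 for shARID1A.4, and 9 opened sites inside the genes were counted. With a log2 change of at least 1, lower members numbered 1 for shARID1B.3 and 0 for combined against single, ARID1A against ARID1B and shARID1A/B.2.3 against shARID1A/B.4.2, and higher members numbered 0 for combined silencing, shARID1A/B.2.3, shARID1A/B.4.2, ARID1A, ARID1B, shARID1A.2, shARID1A.4, shARID1B.2, shARID1B.3 and combined against single, and 3 closed sites inside the genes were counted, and 0 opened sites inside the genes were counted. The 43 members were also pooled with the 138 sites inside the genes, not all tested and defined after values had been seen. Brackets give the share of all tested sites. In this pool, combined silencing called 30 lower (10.3%), shARID1A/B.2.3 called 37 (10.4%) and shARID1A/B.4.2 called 19 (7.37%). ARID1A silencing called 13 lower (5.37%) and ARID1B silencing 7 (3.53%). shARID1A.2 called 14 lower (4.54%) and shARID1B.3 called 12 (4.88%), beside 6 (shARID1B.2, 1.84%) and 4 (shARID1A.4, 4.17%). Combined against single called 24 lower (6.85%), ARID1A against ARID1B called 7 (3.69%) and shARID1A/B.2.3 against shARID1A/B.4.2 called 20 (3.79%). Higher sites numbered 10 with shARID1A/B.4.2 (3.97%), 9 with shARID1A.4 (2.28%) and 5 each with combined silencing (3.43%) and shARID1B.3 (3.12%). There were 2 each with shARID1A/B.2.3 (2.85%), ARID1A (1.67%), ARID1B (1.39%), shARID1A.2 (0.834%) and ARID1A against ARID1B (1.05%).

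Of 63 pairs of same-numbered libraries, 4 had residuals correlated above 0.1 (range -0.16 to 0.305), 3 of these among replicate 2 of Control, shARID1A.2 and shARID1A/B.2.3. As not every pair passed 0.1, the numbers were not taken as pairs, although 13 of 21 libraries correlated best with their own number, a hint from the data and not the design. With the replicate block and GC offsets together, lower members numbered 4 for combined silencing, 3 for shARID1A/B.4.2, 1 for ARID1A and shARID1A.4 and 2 for ARID1B, shARID1B.2 and combined against single, and higher members numbered 2 for shARID1A/B.4.2 and shARID1A/B.2.3 against shARID1A/B.4.2 and 0 for shARID1A.2 and combined against single. With the replicate block, lower members numbered 1 for shARID1B.2, and higher members numbered 2 for ARID1B, shARID1A.4 and shARID1B.3, and 5 opened sites inside the genes were counted. A call lost or gained there is not read as a change in effect.

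Leaving out each library in turn gave 2 to 3 for combined silencing, 0 to 1 for ARID1A, 0 to 1 for shARID1B.2, 1 to 2 for shARID1B.3, 0 to 1 for combined against single, 0 to 1 for ARID1A against ARID1B and 2 to 4 for shARID1A/B.2.3 against shARID1A/B.4.2 lower members and 2 to 4 for combined silencing, 4 to 6 for shARID1A/B.4.2, 0 to 2 for ARID1A, 0 to 2 for ARID1B, 0 to 1 for shARID1A.2, 0 to 2 for shARID1A.4, 0 to 2 for shARID1B.3 and 0 to 2 for combined against single higher members, and 24 to 28 closed and 1 to 9 opened sites inside the genes. Changes that were not called in the combined contrast turned sign at the DLL4 start, to -0.0471 (TMM on promoter sites), -0.0066 (GC offsets) and -0.0015 (the replicate block and GC offsets together), at the MAML2 start, to -0.0249 (TMM on promoter sites), at NOTCH1 intron 2, to -0.0925 (TMM on promoter sites), -0.0511 (GC offsets) and -0.0746 (the replicate block and GC offsets together), at the DLL4 site 3155 bases upstream, to -0.101 (TMM on promoter sites), -0.12 (GC offsets), -0.117 (the replicate block and GC offsets together) and -0.0084 (without Control replicate 2), at the NOTCH1 promoter, to -0.0156 (TMM on promoter sites), -0.0879 (GC offsets) and -0.0867 (the replicate block and GC offsets together). Over the left-out libraries, the change at the DLL4 site 3155 bases upstream ran from -0.0084 to 0.2673.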
